A study of Bos taurus with 6 samples.

Results

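The SLC25 genes encode the mitochondrial carriers, a family of membrane proteins that pass metabolites in and out of mitochondria. Members were taken as every row of the deposited gene table whose gene name starts with SLC25A, which gave 40 of 17663 genes. Of these, 36 held enough counts to be tested, among 13482 genes tested in all. RNA was sequenced from bovine fetal fibroblasts (bEFs) grown as primary cultures from fetuses of 50 to 60 days, after head, limbs, organs and bones had been taken away. FT cells came from 3 transgenic fetuses that carry fat-1, a Caenorhabditis elegans gene for a desaturase that turns n-6 PUFA into n-3 PUFA. WT cells came from 3 wild-type Luxi fetuses. Each fetus gave 1 poly(A) library, so n = 3 per group and p-values cover the spread between 3 cultures only. The promoter that drives fat-1 and the breed of the FT fetuses are not given in the sources used here.

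The inner mitochondrial membrane is closed to most charged molecules, and carriers of this family are the main way through it. They bring in ADP and phosphate for ATP synthesis and let ATP out, admit fatty acids as carnitine esters, exchange the amino acids and keto acids of the redox shuttles, and supply cofactors, iron and glutathione. The proteins are encoded in the nucleus, made in the cytosol and inserted into the membrane by the TIM22 complex. Fibroblasts, like most cells, express many of them together.

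Total counts were 63366834, 48167642 and 54204446 in FT_1, FT_2 and FT_3 and 69777641, 51310741 and 54271927 in WT_1, WT_2 and WT_3. FT_1 stood apart from the other FT libraries. The spread of genes beyond counting noise (biological coefficient of variation) was 56.9% for FT_1 with FT_2 and 57.6% for FT_1 with FT_3, against 8.23% between FT_2 and FT_3 and 9.99% to 13.4% between WT libraries. All 9 fibroblast markers were present in every library, but their summed FPKM (fragments scaled by gene length and library total) was 6776 in FT_1, against 16989 and 16716 in FT_2 and FT_3 and 17743, 17209.8 and 17289 in WT_1, WT_2 and WT_3. Vimentin (VIM), the most abundant of them, had an FPKM of 1244, 3850.2 and 4171 in FT_1, FT_2 and FT_3 and 7891, 8178 and 7312 in WT_1, WT_2 and WT_3. The list did not go one way. PDGFRA, a growth factor receptor gene, was higher in all FT libraries, with 218, 166 and 141 in FT_1, FT_2 and FT_3 and 93.5, 87.0 and 99.7 in WT_1, WT_2 and WT_3 (log2 fold change 1.06, edgeR adjusted p = 0.00530). No other marker of the list passed in edgeR with TMM scaling and all libraries, and VIM passed in 4 of 17 alternative settings. PDGFRB, DCN and LUM were above every WT library in FT_2 and FT_3 and below every WT library in FT_1, and THY1 was highest in FT_1. Without FT_1, VIM passed as lower (-0.79) and COL1A1, PDGFRB, DCN and LUM as higher (0.39, 1.06, 1.01 and 1.37). All 6 epithelial markers were found in FT_1, with a summed FPKM of 432 there, 12.7 and 11.9 in FT_2 and FT_3, and 10.0, 7.83 and 13.9 in WT_1, WT_2 and WT_3. The most abundant was the keratin gene KRT5, at 172, 2.57 and 1.63 in FT_1, FT_2 and FT_3 and 0 in each WT library. KRT8, KRT14 and KRT18 were likewise at 0 in WT cells, and EPCAM was at 0 in every library but FT_1, where its FPKM was 0.57. In edgeR with TMM scaling and all libraries no epithelial marker passed, and without FT_1 the 4 keratin genes passed as higher in FT (adjusted p = 3.40e-06 for KRT5). Of 17 alternative settings, KRT5 and KRT14 passed in 4 and KRT8 and KRT18 in 3.

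The values of FT_1 thus went in part against its label as fibroblasts, and the results are given with and without it. The other marker lists were low. Summed FPKM reached 1.26 for endothelial, 5.22 for leukocyte, 5.77 for skeletal muscle, 6.22 for adipocyte, 3.74 for glial or neuronal and 0.0400 for erythroid markers. Of these markers, DES of muscle was at 5.74, 4.01 and 3.17 in FT_1, FT_2 and FT_3 and at most 0.07 in WT cells and passed as higher (log2 fold change 7.44, edgeR adjusted p = 0.00488). By contrast, MYF5 of the same list was at 0.03, 0.59 and 0.61 in FT_1, FT_2 and FT_3 and 1.06, 1.31 and 1.93 in WT_1, WT_2 and WT_3 and did not pass. MYF5 passed as lower without FT_1 (log2 fold change -1.09, edgeR adjusted p = 0.0129). MYH3, at most 0.01 in FT and 0.12 in WT, passed as lower (adjusted p = 0.0461) but not without FT_3, WT_1, WT_2 or WT_3 (0.106, 0.126, 0.101 and 0.15). LEP of adipocytes was at 4.91 and 4.45 in FT_2 and FT_3 and at most 0.09 elsewhere. LEP passed as higher (adjusted p = 0.0390) but not without FT_2, FT_3, WT_1, WT_2 or WT_3 (0.0853, 0.0828, 0.121, 0.130 and 0.132) or in limma on log2(FPKM + 1) (0.103). TUBB3 of neurons had 1.6 ± 0.399 in FT and 3.22 ± 0.501 in WT and passed as lower (log2 fold change -0.85, edgeR adjusted p = 0.0384), but not without FT_2, FT_3, WT_1, WT_2 or WT_3 (adjusted p = 0.0963, 0.0981, 0.0737, 0.130 and 0.104). CD14 of leukocytes and PECAM1 of endothelium were lower in all FT libraries, did not pass in edgeR with all libraries and passed without FT_1 (adjusted p = 0.0115 and 0.000451). In cultures of this kind, fewer cells of a type and less RNA per cell cannot be told apart.

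The carriers covered a wide range of levels. Over the 6 libraries, 16 of the 40 genes had a mean FPKM over 10, 17 lay between 1 and 10, and 7 were under 1. The ADP/ATP carrier gene SLC25A6 led with a mean of 375, followed by the phosphate carrier gene SLC25A3 with 205, the glutathione carrier gene SLC25A39 with 61.5, the citrate carrier gene SLC25A1 with 58.3 and the oxoglutarate carrier gene SLC25A11 with 45.6. The genes not tested were SLC25A2, SLC25A31, SLC25A45 and SLC25A47, each with an FPKM of 0.10 or less in every library. Members lay on 20 of the 29 autosomes, and the GO annotation of the table placed 31 of the 40 in the mitochondrion and 22 in its inner membrane. RefSeq lists 46 genes with an SLC25A symbol (ARS-UCD2.0 assembly), of which 40 matched a member by symbol. SLC25A5, SLC25A14, SLC25A43 and SLC25A53, on the X chromosome, and SLC25A48 had no row under these symbols in the deposited table. The levels, sums and shares given here therefore leave them out. SLC25A5 is a further ADP/ATP carrier gene, so SLC25A6 and SLC25A4 are not the whole of that kind.

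**Figure D1:**
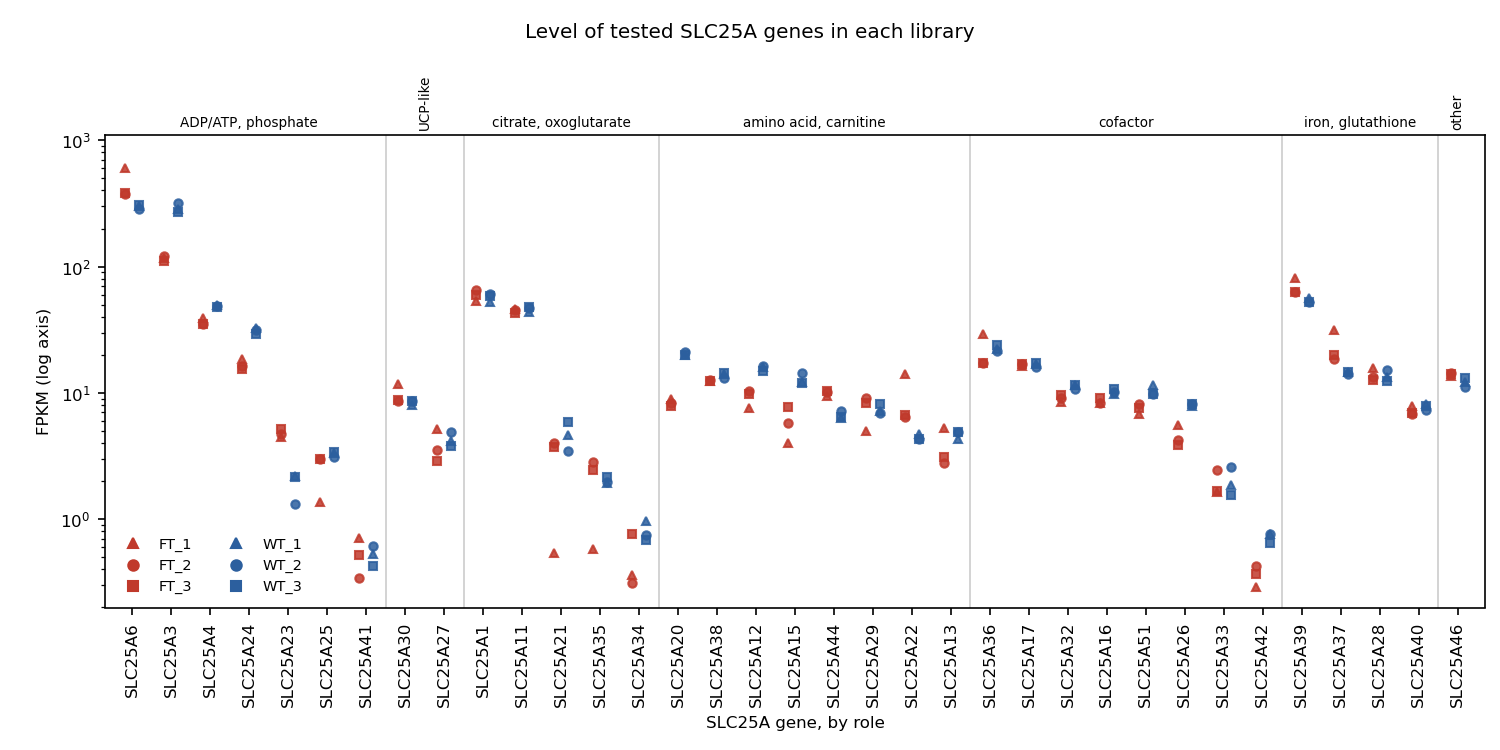
FPKM (log axis) of tested SLC25A genes in each library, grouped by role, with FT libraries in red and WT libraries in blue and a different symbol for each replicate number. SLC25A6 and SLC25A3 lie above all others in every library, and FT_1 (red triangle) lies far below the other libraries for SLC25A21 and SLC25A35.

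The sum of all SLC25A FPKM values was 1198, 939.7 and 928 in FT_1, FT_2 and FT_3 and 1072, 1095 and 1067 in WT_1, WT_2 and WT_3. FT_1 was thus above and FT_2 and FT_3 below all WT libraries on this scale. The FPKM sum of all genes was 407533, 396565 and 390892 in FT_1, FT_2 and FT_3 and 456349, 467653 and 453721 in WT_1, WT_2 and WT_3. It was lower in FT too, so the lower family sums of FT_2 and FT_3 cannot be read as a lower share of all FPKM. The make-up of the SLC25A sum differed between the groups. SLC25A6 took 50.1%, 39.7% and 41.0% of it in FT_1, FT_2 and FT_3 and 28.4%, 26.3% and 28.8% in WT_1, WT_2 and WT_3. SLC25A3 took 9.68%, 13.0% and 12% in FT_1, FT_2 and FT_3 and 26.8%, 29.2% and 25.6% in WT_1, WT_2 and WT_3. Both genes were about level in WT cells, while SLC25A6 was ahead in every FT library. The ratio of SLC25A6 to SLC25A3, looked at after their values were seen, was 3.88 ± 1.14 (SD, n = 3) in FT and 1.03 ± 0.117 in WT, and 3.05 and 3.41 in FT_2 and FT_3.

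Genes were compared between FT and WT cells by edgeR's quasi-likelihood test on the raw counts, and a gene passed at a Benjamini-Hochberg adjusted p under 0.05 over all tested genes. Of the 36 tested carriers, 15 (41.7%) passed, against 39.0% of all tested genes. There were 8 higher in FT (22.2%, against 20.1% of all genes) and 7 lower (19.4%, against 18.9%). These shares were near the background, and the median log2 fold change was 0.05 for the carriers and 0.03 for all genes. Rises and falls were about equal in number. The study's methods called a gene by a log2 fold change beyond 1 in either direction with a p value below 0.05, taken here as unadjusted. This called 4 carriers (11.1%), against 19.2% of all genes. SLC25A22 and SLC25A23 were higher (5.56%, against 10.2%) and SLC25A3 and SLC25A20 lower (5.56%, against 8.96%). The FPKM ranges of the groups did not overlap for 22 of the 36 carriers (61.1%), against 58.7% of all genes. In 9 of them FT was higher (25%, against 21.8%) and in 13 lower (36.1%, against 36.9%).

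Without FT_1, all 15 genes passed again in the same direction, with 5 more. That made 20 of 36 (55.6%), against 62.1% of all genes, with 11 higher (30.6%, against 30.6%) and 9 lower (25%, against 31.5%). SLC25A22 then fell under the fold threshold of the study, which left 3 genes past it (8.33%, against 23.3% of all genes), 1 of them higher (2.78%, against 11.0%) and 2 lower (5.56%, against 12.2%). Each of the 15 also kept its direction in all 17 alternative settings. Leaving out WT_1, WT_2 or WT_3 left 5, 5 and 7 of the 15 genes (13.9%, 13.9% and 19.4% of the 36, against 22.1%, 23.0% and 25.5% of all genes). Leaving out FT_2 or FT_3 left 10 and 12 (27.8% and 33.3%, against 29.5% and 30.0%). Past the study's threshold 4 carriers were lower without FT_3 (11.1%, against 9.02% of all genes) and 2 with all libraries (5.56%, against 8.96%). By the adjusted p, SLC25A3, SLC25A20, SLC25A23, SLC25A24 and SLC25A44 passed in all 17 alternative settings. Scaling between libraries moved the split between higher and lower genes. With library totals only, which moved the median of all genes from 0.03 to -0.12, 14 carriers passed (38.9%, against 40.4% of all genes), 4 of them higher (11.1%, against 15.2%) and 10 lower (27.8%, against 25.2%). DESeq2 passed 16 carriers (44.4%, against 47.0% of all genes), 8 higher (22.2%, against 24.3%) and 8 lower (22.2%, against 22.7%). On log2(FPKM + 1), which is not rescaled, limma passed 12 (33.3%, against 44.2%), 3 higher (8.33%, against 15.0%) and 9 lower (25%, against 29.2%). By the study's threshold limma called 4 (11.1%, against 12.1%), 1 higher (2.78%, against 3.77%) and 3 lower (8.33%, against 8.38%). FPKM values are on the scale of library totals, and log2 fold changes are after TMM scaling unless stated.

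**Figure D2:**
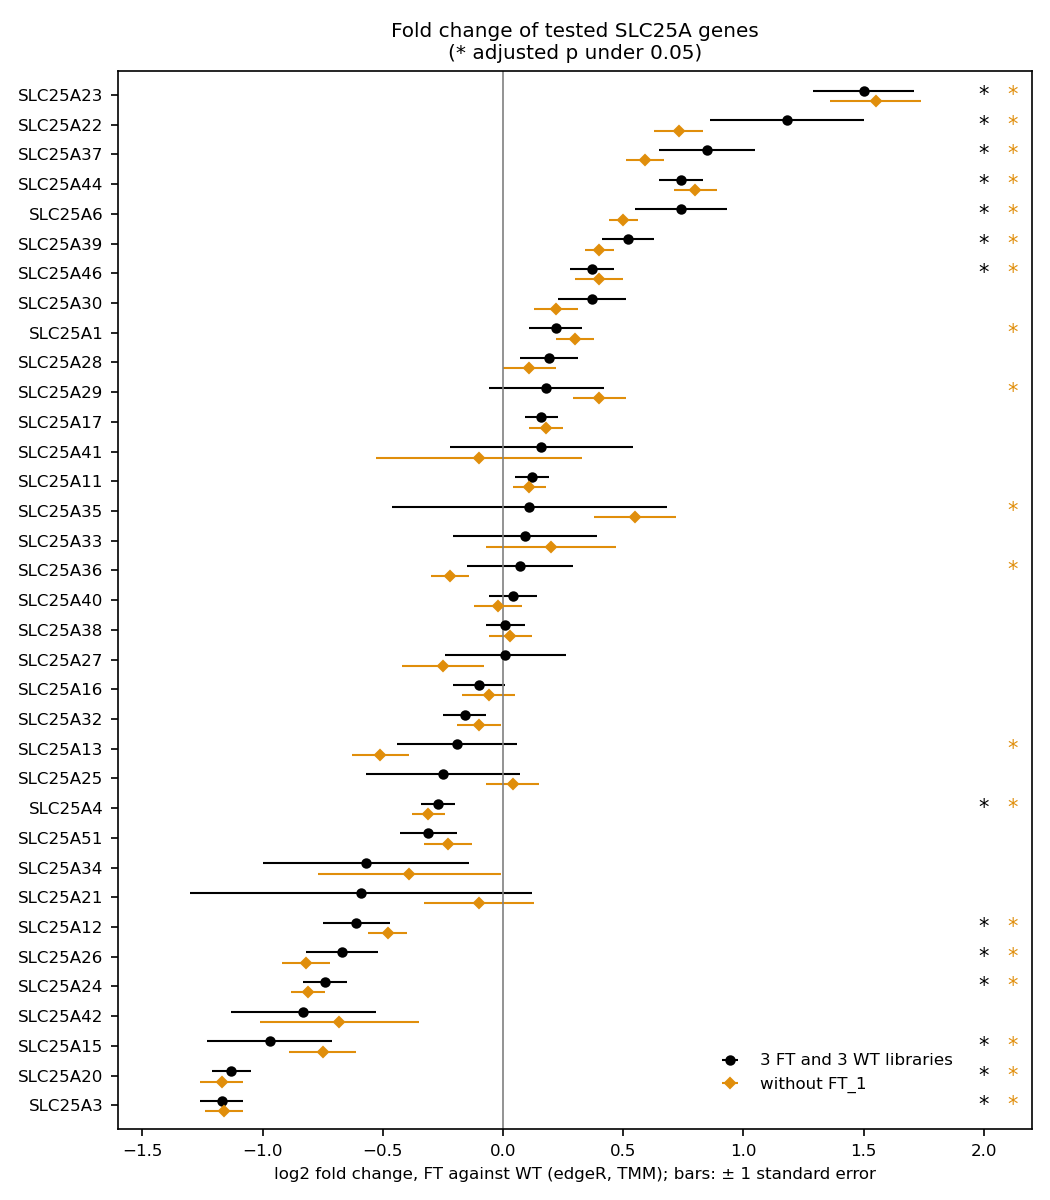
Log2 fold change of FT against WT for tested SLC25A genes (edgeR on counts, TMM scaling), with bars of 1 standard error, for all 6 libraries (black) and without FT_1 (orange). Asterisks mark an adjusted p under 0.05, and SLC25A23 lies at the top and SLC25A3 at the bottom (-1.17).

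Of the 7 tested carriers of adenine nucleotides and phosphate, 2 rose, 3 fell and 2 did not pass, against 20.1% of all genes higher and 18.9% lower. SLC25A3 (ENSBTAG00000012890, chromosome 5, 62746005 to 62752373 in the deposited table), which carries phosphate into the matrix for ATP synthase, had an FPKM of 116, 122 and 112 in FT_1, FT_2 and FT_3 and 287, 320.2 and 273 in WT_1, WT_2 and WT_3. All FT libraries were below all WT libraries, and FT_1 was in the middle of its group. The log2 fold change was -1.17 (standard error 0.09, edgeR adjusted p = 0.000887), and -1.16 without FT_1. SLC25A6 (ENSBTAG00000047418, chromosome 26, 15190922 to 15195504), which exchanges ADP for ATP, had an FPKM of 600.3, 373 and 380.2 in FT_1, FT_2 and FT_3 and 304, 288 and 307 in WT_1, WT_2 and WT_3. FT libraries were all higher than WT libraries, with FT_1 well above FT_2 and FT_3. Its log2 fold change was 0.74 (standard error 0.19, edgeR adjusted p = 0.0268), and 0.50 (standard error 0.06, adjusted p = 7.05e-05) without FT_1. The call was lost without WT_1, WT_2 or WT_3 (adjusted p = 0.0927, 0.101 and 0.0833) and with library totals only (log2 fold change 0.60, adjusted p = 0.0605) or in limma on log2(FPKM + 1) (adjusted p = 0.0662).

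SLC25A4, the ADP/ATP carrier gene best known from heart and muscle, went the other way. Its FPKM was 36.3 ± 2.28 in FT and 48.9 ± 0.912 in WT (SD, n = 3), a log2 fold change of -0.27 (standard error 0.07, edgeR adjusted p = 0.0261) with all FT libraries below all WT libraries. It did not pass without FT_2, FT_3, WT_1, WT_2 or WT_3 (adjusted p = 0.0896, 0.0873, 0.101, 0.0785 and 0.0677) or with gene length offsets (log2 fold change -0.14, adjusted p = 0.165). The ratio of SLC25A6 to SLC25A4, also looked at after their values were seen, was 12.3 ± 2.69 in FT and 6.13 ± 0.268 in WT. It was 15.4, 10.6 and 10.9 in FT_1, FT_2 and FT_3. ADP/ATP carrier genes resemble each other in sequence, and how reads that match several of them were counted is not given in the sources used here.

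The ATP-Mg/phosphate carriers load adenine nucleotides into the matrix and are switched on by calcium, and 2 of their genes changed in opposite directions. SLC25A24 (ENSBTAG00000003752, chromosome 3, 35038387 to 35096479) had an FPKM of 18.4, 16.2 and 15.4 in FT_1, FT_2 and FT_3 and 32.7, 31.3 and 29.4 in WT_1, WT_2 and WT_3. SLC25A23 (ENSBTAG00000003491, chromosome 7, 18011743 to 18026173) had 4.48, 4.71 and 5.13 in FT_1, FT_2 and FT_3 and 2.19, 1.33 and 2.14 in WT_1, WT_2 and WT_3. The groups did not overlap for either gene, SLC25A24 being lower and SLC25A23 higher in all FT libraries. The log2 fold change was -0.74 for SLC25A24 (standard error 0.09, edgeR adjusted p = 0.00213) and 1.5 for SLC25A23 (standard error 0.21, adjusted p = 0.00373). Without FT_1 the values were -0.81 and 1.55. The ratio of SLC25A24 to SLC25A23 was 4.11, 3.44 and 3.01 in FT_1, FT_2 and FT_3 and 14.9, 23.5 and 13.8 in WT_1, WT_2 and WT_3, so that SLC25A24 remained the more abundant of the pair in every library by a smaller margin in FT cells. Among the 7 listed paralogue pairs that were tested, no other had log2 fold changes more than 1 apart (difference -2.24). SLC25A6 and SLC25A4, a pair outside that list, were 1.02 apart with all libraries. Without FT_1 their log2 fold changes were 0.50 and -0.31, less than 1 apart.

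The remaining genes of this kind did not pass. SLC25A25 had an FPKM of 2.46 ± 0.941 in FT and 3.27 ± 0.155 in WT (log2 fold change -0.25, standard error 0.32), and FT_1 was at 1.37 against 2.99 and 3.01 in FT_2 and FT_3. SLC25A41, which lacks the calcium-binding part of its relatives, had 0.523 ± 0.185 in FT and 0.523 ± 0.0902 in WT. It lies 1406 bases from SLC25A23 on the same strand of chromosome 7, and its log2 fold change was 0.16 (standard error 0.38). The 2 carriers that resemble uncoupling proteins, SLC25A27 (3.86 ± 1.2 in FT and 4.28 ± 0.570 in WT) and SLC25A30 (9.76 ± 1.81 in FT and 8.40 ± 0.277 in WT), did not pass either, although SLC25A30 was higher in all FT libraries (log2 fold change 0.37, edgeR adjusted p = 0.0783). At an unadjusted p under 0.05 there was 1 of these 2 genes, SLC25A30, against 49.6% of all genes. Neither passed in DESeq2 or limma, where 47.0% and 44.2% of all genes did.

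**Figure D3:**
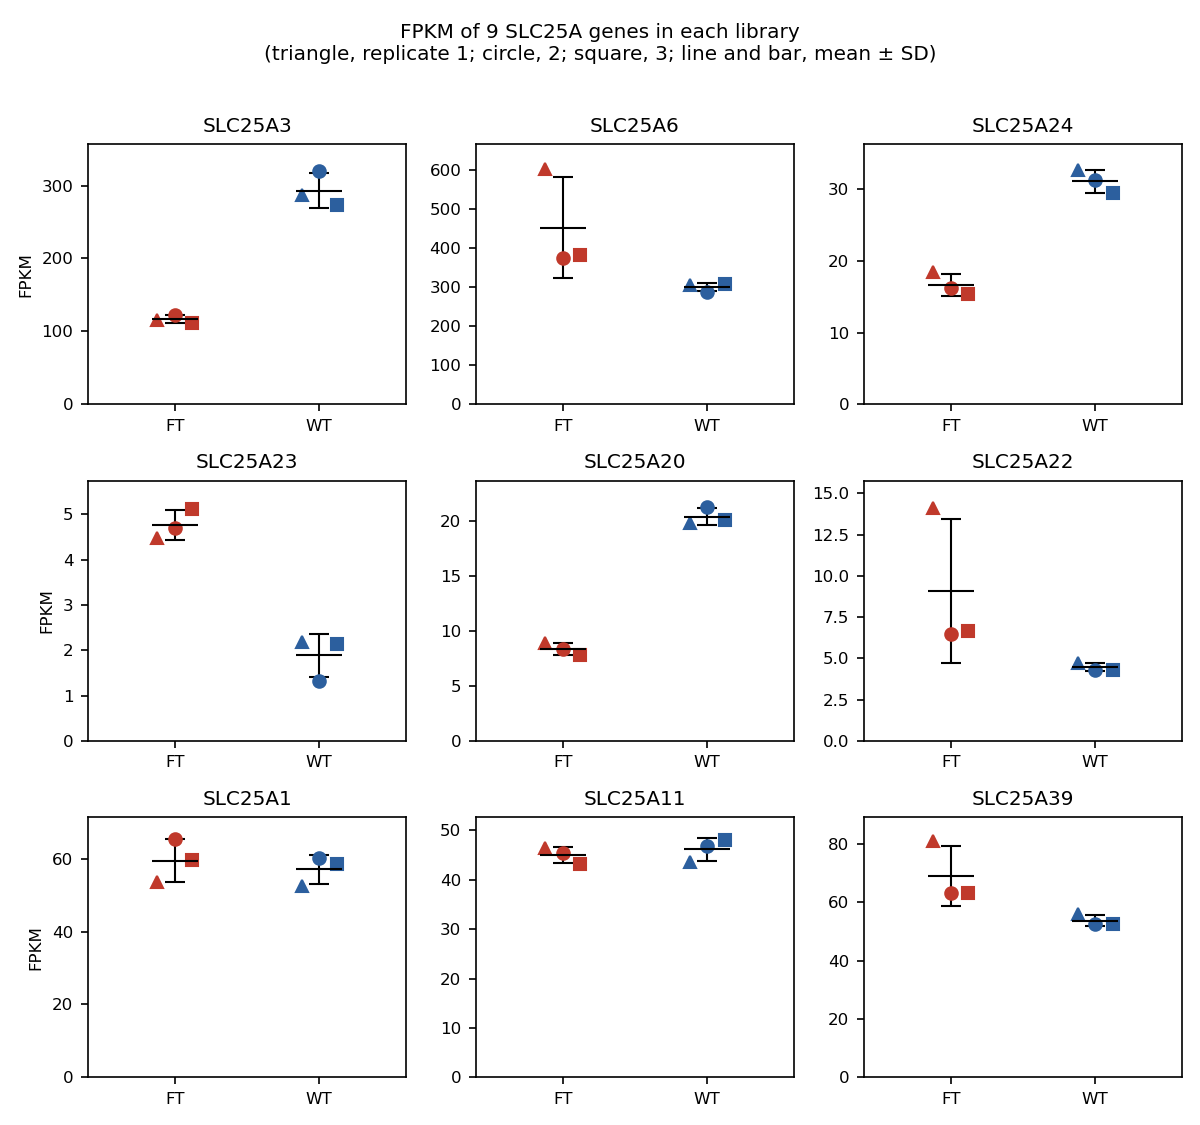
FPKM of 9 SLC25A genes in each library on linear axes from 0, with FT in red and WT in blue, symbols for the replicate numbers, and the mean ± SD of each group (n = 3). FT and WT do not overlap for 7 of the genes, and overlap for SLC25A1 and SLC25A11.

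None of the 5 tested carriers of citrate, dicarboxylates and oxoglutarate passed edgeR's test on the TMM-scaled counts of all libraries, and 0 had an unadjusted p under 0.05 or passed in DESeq2 or limma. Of all genes, 39.0% passed in edgeR, 49.6% had an unadjusted p under 0.05 there, and 47.0% passed in DESeq2 and 44.2% in limma on log2(FPKM + 1). SLC25A1 (ENSBTAG00000008528, chromosome 17, 72617237 to 72620215), which exports citrate for fatty acid synthesis, had an FPKM of 53.5, 65.4 and 59.5 in FT_1, FT_2 and FT_3 and 52.6, 60.1 and 58.5 in WT_1, WT_2 and WT_3. SLC25A11 (ENSBTAG00000004910, chromosome 19, 26455453 to 26458255), which exchanges malate for oxoglutarate, had 46.5, 45.3 and 43.2 in FT_1, FT_2 and FT_3 and 43.6, 46.8 and 48 in WT_1, WT_2 and WT_3. The groups overlapped for both genes. Log2 fold changes were 0.22 (standard error 0.11, edgeR adjusted p = 0.160) for SLC25A1 and 0.12 (standard error 0.07, adjusted p = 0.224) for SLC25A11. Without FT_1, SLC25A1 passed with 0.30 (standard error 0.08, adjusted p = 0.00824) and SLC25A11 did not (adjusted p = 0.198). SLC25A1 also passed with all libraries under gene length offsets (0.37, adjusted p = 0.0342).

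In this group FT_1 was far from the other FT libraries for 2 low genes, singled out after their values were seen. SLC25A21, a carrier gene for oxodicarboxylates such as oxoadipate, had an FPKM of 0.54, 4 and 3.71 in FT_1, FT_2 and FT_3 and 4.65, 3.44 and 5.83 in WT_1, WT_2 and WT_3. SLC25A35, whose substrate is less well known, had 0.58, 2.84 and 2.45 in FT_1, FT_2 and FT_3 and 1.94, 1.97 and 2.17 in WT_1, WT_2 and WT_3. FT_1 was the lowest of the 6 libraries for both. SLC25A35 did not pass with all libraries (log2 fold change 0.11, standard error 0.57) and passed as higher without FT_1 (0.55, standard error 0.17, edgeR adjusted p = 0.0158), and its sign turned without FT_2 (-0.26) or FT_3 (-0.09). SLC25A21 and SLC25A35 overlap the genes MIPOL1 and RANGRF on the opposite strand, by 1531 and 25 bases. Whether strand was used in counting is not given in the sources used here. Such overlaps were not particular to these genes. SLC25A2, SLC25A11, SLC25A17, SLC25A25, SLC25A26 and SLC25A32 also overlap a gene on the opposite strand, and SLC25A3 overlaps another on its own strand. A row without a gene name, ENSBTAG00000055145 on chromosome 19, is described in the table as SLC25A10, the dicarboxylate carrier gene, and stands outside the rule for members. Its FPKM was 26.5, 6.22 and 5.32 in FT_1, FT_2 and FT_3 and 4.17, 4.63 and 4.12 in WT_1, WT_2 and WT_3. FT_1 was far above every other library, and the log2 fold change of 1.70 (standard error 0.64, edgeR adjusted p = 0.0799) became 0.59 (standard error 0.12, adjusted p = 0.00197) without FT_1.

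Of the 8 tested carriers of amino acids and carnitine, 2 rose, 3 fell and 3 did not pass, beside the same 20.1% and 18.9% of all genes. SLC25A20 (ENSBTAG00000000191, chromosome 22, 51045061 to 51080116), which brings acylcarnitines into the matrix for fatty acid oxidation, had an FPKM of 8.92, 8.34 and 7.81 in FT_1, FT_2 and FT_3 and 19.8, 21.2 and 20.1 in WT_1, WT_2 and WT_3. All FT libraries lay under all WT libraries, close together within each group. Its log2 fold change was -1.13 (standard error 0.08, edgeR adjusted p = 0.000755), and -1.17 without FT_1. SLC25A22 (ENSBTAG00000001229, chromosome 29, 50569809 to 50574869), a glutamate carrier gene, had an FPKM of 14.1, 6.49 and 6.65 in FT_1, FT_2 and FT_3 and 4.74, 4.3 and 4.32 in WT_1, WT_2 and WT_3. FT was higher in all libraries, and FT_1 had more than FT_2 and FT_3 put together. The log2 fold change of 1.18 (standard error 0.32, edgeR adjusted p = 0.0294) was 0.73 (standard error 0.10, adjusted p = 0.000177) without FT_1. SLC25A22 did not pass without WT_1, WT_2 or WT_3 (adjusted p = 0.0905, 0.105 and 0.0985) or in limma on log2(FPKM + 1) (adjusted p = 0.0603).

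SLC25A44, a carrier gene for branched-chain amino acids, rose from an FPKM of 6.64 ± 0.512 in WT to 9.97 ± 0.494 in FT (log2 fold change 0.74, standard error 0.09, edgeR adjusted p = 0.00257). SLC25A15, which exchanges ornithine for citrulline in the urea cycle, fell from 12.8 ± 1.26 to 5.82 ± 1.84 (log2 fold change -0.97, standard error 0.26, adjusted p = 0.0282). SLC25A12, an aspartate/glutamate carrier gene of the malate-aspartate shuttle, fell from 15.8 ± 0.876 to 9.26 ± 1.45 (log2 fold change -0.61, standard error 0.14, adjusted p = 0.0179). The groups did not overlap for any of these 3 genes. SLC25A15 lost its call without FT_2, WT_1, WT_2 or WT_3 (adjusted p = 0.0776, 0.0789, 0.1 and 0.0750) and SLC25A12 without WT_1 or WT_2 (adjusted p = 0.0687 and 0.0696). SLC25A13, the paralogue of SLC25A12, had an FPKM of 3.70 ± 1.34 in FT and 4.70 ± 0.352 in WT and did not pass (log2 fold change -0.19, standard error 0.25). It passed as lower without FT_1 (-0.51, edgeR adjusted p = 0.00383). FT_1 had an FPKM of 5.23, above FT_2 with 2.78 and FT_3 with 3.08. SLC25A29, a carrier gene for basic amino acids, showed the opposite (0.18 with FT_1 and 0.40, adjusted p = 0.00844, without it). The glycine carrier gene SLC25A38 had 12.5 ± 0.121 in FT and 13.9 ± 0.584 in WT and did not pass.

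Of the 9 tested nucleotide and cofactor carriers, 1 rose, 1 fell and 7 did not pass, where 20.1% of all genes rose and 18.9% fell. SLC25A26, which imports S-adenosylmethionine, the methyl donor of the cell, had an FPKM of 4.55 ± 0.888 in FT and 8.06 ± 0.147 in WT with no overlap (log2 fold change -0.67, standard error 0.15, edgeR adjusted p = 0.0155). SLC25A26 lost its call without FT_2, WT_1, WT_2 or WT_3 (adjusted p = 0.0531, 0.0575, 0.0594 and 0.0580).

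Among those that did not pass, the pyrimidine nucleotide carrier gene SLC25A36 was the most abundant. Its FPKM was 29.3, 17.2 and 17.2 in FT_1, FT_2 and FT_3 and 22.2, 21.6 and 23.9 in WT_1, WT_2 and WT_3, values given after they were seen. FT_1 was above and FT_2 and FT_3 were below all WT libraries, and the log2 fold change of 0.07 (standard error 0.22) turned to -0.22 (standard error 0.08, edgeR adjusted p = 0.0275) without FT_1. The NAD carrier gene SLC25A51 was lower in all FT libraries at 7.53 ± 0.692 in FT and 10.4 ± 1.01 in WT (log2 fold change -0.31, adjusted p = 0.0821), as was SLC25A42, a coenzyme A carrier gene of low level, at 0.363 ± 0.0702 in FT and 0.727 ± 0.0666 in WT (log2 fold change -0.83, adjusted p = 0.0713). SLC25A17, found in peroxisomes, had nearly the same mean level in both groups, with 16.7 ± 0.307 in FT and 16.7 ± 0.532 in WT. The other 3 genes, SLC25A16, SLC25A32 and SLC25A33, had log2 fold changes of -0.10, -0.16 and 0.09. Some of these genes passed as lower in other settings. With library totals only the adjusted p was 0.0211 for SLC25A51, 0.0359 for SLC25A32 and 0.0417 for SLC25A42. In limma on log2(FPKM + 1) it was 0.0204 for SLC25A51 and 0.0289 for SLC25A32. SLC25A42 passed in DESeq2 (0.0388) and in limma without a filter (0.0148), and SLC25A51 with gene length offsets (0.0373).

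Of the 4 iron and glutathione carriers, 2 rose, as did 20.1% of all genes, and 2 did not pass. SLC25A39 (ENSBTAG00000019463, chromosome 19, 44126334 to 44130992), which imports glutathione, had an FPKM of 81.1, 63.1 and 63.1 in FT_1, FT_2 and FT_3 and 56.0, 52.7 and 52.7 in WT_1, WT_2 and WT_3. FT libraries were all higher than WT libraries, FT_1 most of all. Its log2 fold change was 0.52 (standard error 0.11, edgeR adjusted p = 0.0142), and 0.40 without FT_1. The mitoferrin gene SLC25A37, which imports iron for heme and iron-sulfur clusters, had 23.4 ± 7.09 in FT and 14.5 ± 0.338 in WT (log2 fold change 0.85, standard error 0.20, adjusted p = 0.0197), and 0.59 without FT_1. Neither passed without WT_1, WT_2 or WT_3 (adjusted p = 0.0535, 0.0628 and 0.0591 for SLC25A39 and 0.0738, 0.0792 and 0.0690 for SLC25A37), nor did SLC25A39 with library totals only (log2 fold change 0.37, adjusted p = 0.0539) or in limma on log2(FPKM + 1) (adjusted p = 0.0535), or SLC25A37 in limma without a filter (0.0654). RefSeq lists a neighbouring gene, LOC523756, with SLC25A37 as a synonym, so the row may hold reads of both.

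The paralogues SLC25A40 (7.21 ± 0.586 in FT and 7.83 ± 0.438 in WT) and SLC25A28 (13.9 ± 1.67 in FT and 13.6 ± 1.38 in WT) did not pass. The ratio of SLC25A39 to SLC25A40 was 9.55 ± 0.651 in FT and 6.88 ± 0.260 in WT, and that of SLC25A28 to SLC25A37 was 0.616 ± 0.110 in FT and 0.940 ± 0.117 in WT, with no overlap between the groups for either ratio. SLC25A46, a protein of the outer membrane linked to mitochondrial shape rather than transport, had an FPKM of 14.1 ± 0.346 in FT and 12.2 ± 0.980 in WT (log2 fold change 0.37, standard error 0.09, edgeR adjusted p = 0.0262). It did not pass without FT_2, FT_3, WT_1 or WT_2 (adjusted p = 0.0805, 0.0763, 0.0966 and 0.0858) or with library totals only (log2 fold change 0.22, adjusted p = 0.109) or in limma on log2(FPKM + 1) (adjusted p = 0.0997).

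FT_1 differed from the mean of FT_2 and FT_3 by more than 1.5 fold in FPKM for 12 of the 36 carriers (33.3%), against 37.0% of all genes with a value. It was higher for 7 (19.4%, against 18.9%) and lower for 5 (13.9%, against 18.1%). Of the 8 genes that rose, SLC25A6, SLC25A22 and SLC25A37 were among the 7, with ratios of 1.59, 2.15 and 1.63, and their rises were smaller without FT_1. SLC25A3, SLC25A20 and SLC25A23 had ratios of 0.992, 1.10 and 0.911. The part of the epithelial markers of FT_1 in these values was not tested.

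**Figure D4:**
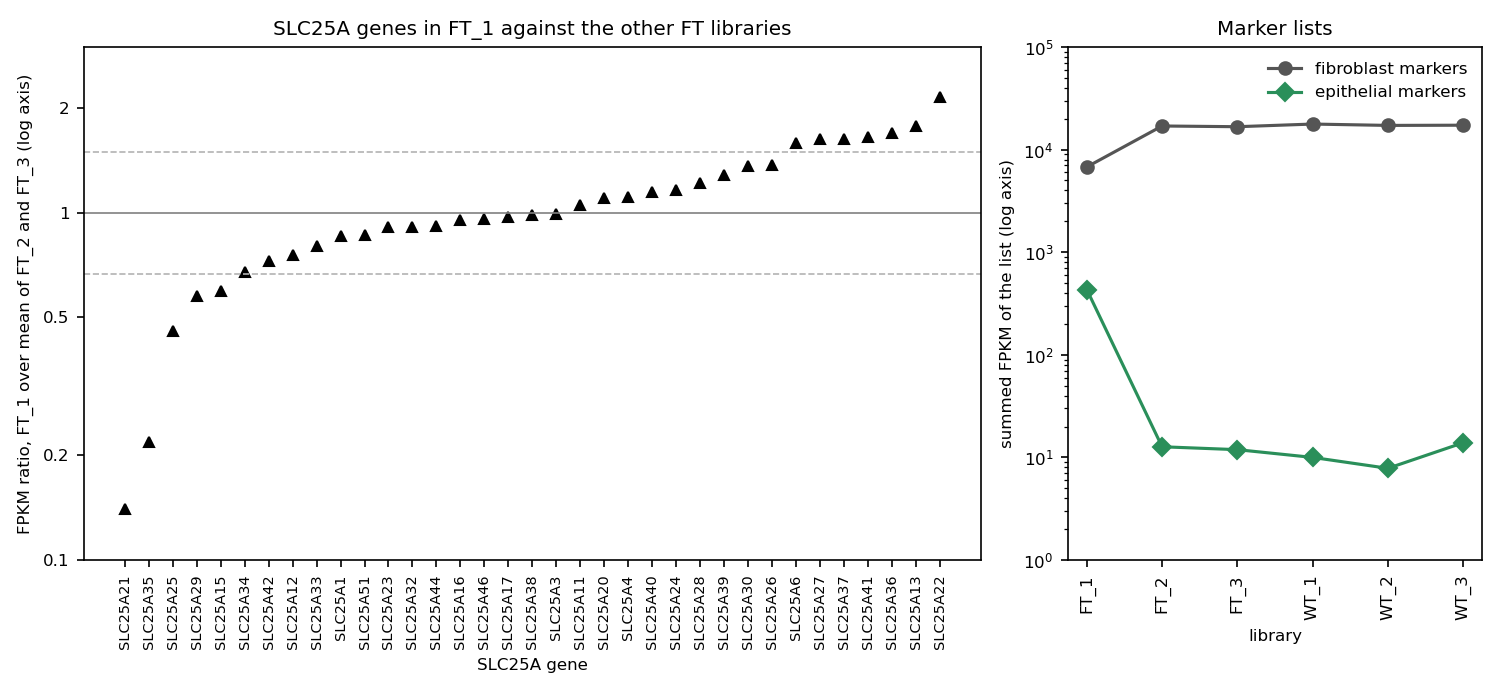
Left, FPKM of tested SLC25A genes in FT_1 divided by the mean of FT_2 and FT_3 (log axis), with dashed lines at 1.5 fold in each direction. Right, summed FPKM (log axis) of the fibroblast and epithelial marker lists in each library, where FT_1 has the lowest fibroblast sum (6776) and the highest epithelial sum (432).

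The genes that work with the carriers were described from 8 lists. Of their 59 tested genes, 5 rose (8.47%, against 20.1% of all genes) and 24 fell (40.7%, against 18.9%), their median log2 fold change being -0.24 and that of all genes 0.03. Without FT_1 the counts were 9 and 33, when 30.6% of all genes passed as higher and 31.5% as lower. Without FT_3, WT_1, WT_2 or WT_3 there were 3 higher, when 15.6%, 11.0%, 11.6% and 13.0% of all genes were higher, with 20, 18, 17 and 16 lower, when 14.4%, 11.1%, 11.3% and 12.6% of all genes were lower. The 3 porins of the outer membrane, through which the substrates of carriers first pass, all fell. VDAC1 had an FPKM of 63.4, 56.5 and 54.8 in FT_1, FT_2 and FT_3 and 142, 156 and 139 in WT_1, WT_2 and WT_3, with every FT library under every WT library (log2 fold change -1.16, standard error 0.09, edgeR adjusted p = 0.000827). The log2 fold change was -1.10 for VDAC2 and -0.39 for VDAC3. Of 12 genes of the route that imports carriers, 8 fell (66.7%, against 18.9% of all genes), 1 rose and 3 did not pass. Leaving out FT_2, FT_3, WT_1, WT_2 or WT_3 each left 5 of the 8, with 14.2%, 14.4%, 11.1%, 11.3% and 12.6% of all genes passing as lower. TOMM22, a receptor of the outer membrane, fell from 96.3 ± 6.48 to 39.5 ± 7.66 (log2 fold change -1.13, adjusted p = 0.00249). AGK, a subunit of the TIM22 complex, fell from 6.22 ± 0.403 to 3.14 ± 0.352 (-0.83, adjusted p = 0.00310). The exception was TIMM13, a chaperone gene of the intermembrane space, at 44.9 ± 2.42 in FT and 34.6 ± 2.68 in WT (0.54, adjusted p = 0.00651).

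In the carnitine route, around SLC25A20, 2 of 6 genes fell (33.3%, against 18.9% of all genes) and 1 rose (16.7%, against 20.1%). CPT2, which releases fatty acids from carnitine inside the matrix, had an FPKM of 19.5, 21.9 and 21.5 in FT_1, FT_2 and FT_3 and 66.1, 61.5 and 68.5 in WT_1, WT_2 and WT_3. The groups were far apart (log2 fold change -1.48, standard error 0.09, edgeR adjusted p = 0.000532). CPT1A, which makes acylcarnitines at the outer membrane, had 17.5 ± 5.34 in FT and 33.7 ± 1.63 in WT (-0.78, adjusted p = 0.0489), and FT_1 with 11.4 was the lowest. CPT1A lost its call without FT_2, WT_1, WT_2 or WT_3 (adjusted p = 0.0808, 0.136, 0.133 and 0.110). CRAT, which handles short acyl groups, rose from 42.2 ± 1.62 to 48.3 ± 3.84 (0.35, adjusted p = 0.0288), but not without FT_2, FT_3, WT_1, WT_2 or WT_3 (adjusted p = 0.0702, 0.0787, 0.108, 0.107 and 0.0707) or with library totals only (adjusted p = 0.111) or in limma (0.114). CPT1B, CPT1C and the carnitine transporter gene SLC22A5 had mean FPKM values of 0.123 to 1.80 and did not pass, although CPT1B was higher without FT_1 (log2 fold change 2.59, adjusted p = 0.000359).

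Among the 4 enzymes of the malate-aspartate shuttle, which works through SLC25A11, SLC25A12 and SLC25A13, MDH1, MDH2 and GOT1 fell (75.0%, against 18.9% of all genes) and GOT2 did not pass. The cytosolic malate dehydrogenase gene MDH1 had an FPKM of 23.9, 26.9 and 25.4 in FT_1, FT_2 and FT_3 and 78.6, 94.3 and 73.8 in WT_1, WT_2 and WT_3. FT values were all lower, the log2 fold change being -1.53 (standard error 0.12, edgeR adjusted p = 0.000827), against -0.72 for MDH2, -0.61 for GOT1 and -0.04 for GOT2. In the citrate route around SLC25A1, 1 of 5 genes rose (against 20.1% of all genes). FASN, which builds fatty acids, rose from 5.78 ± 0.351 to 13.1 ± 3.58 (log2 fold change 1.33, adjusted p = 0.00355), while CS, ACLY and ACACA did not pass (0.06, 0.28 and 0.19). CS passed as higher without FT_1 (0.24, edgeR adjusted p = 0.0140). That made 2 of the 5 genes higher, when 30.6% of all genes were higher.

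Of 13 other mitochondrial transporters, 3 fell (23.1%, against 18.9% of all genes) and 10 did not pass. MPC2, a subunit of the pyruvate carrier, had an FPKM of 24.0 ± 1.25 in FT and 72.1 ± 5.16 in WT (log2 fold change -1.43, edgeR adjusted p = 0.000532). SFXN4 also fell, but did not pass without WT_3 (adjusted p = 0.0585). Without FT_1, 9 of the 13 passed as lower, as did 31.5% of all genes. Of 13 cofactor users, 2 rose (15.4%, against 20.1%) and 3 fell (23.1%, against 18.9%), shares near the background. ALAS1, which starts heme synthesis, and COASY, the last enzyme of coenzyme A synthesis, rose (0.81 and 0.37), while NFS1, which supplies sulfur for iron-sulfur clusters, and FECH, which inserts iron into heme, fell (-0.95 and -0.51), as did PANK2. COASY did not pass without FT_3, WT_1, WT_2 or WT_3 (edgeR adjusted p = 0.0738, 0.101, 0.0576 and 0.0740) or with library totals only (adjusted p = 0.115) or in limma (0.105), PANK2 without the same libraries (0.103, 0.0894, 0.116 and 0.0982) or with gene length offsets (0.0825) and FECH without WT_1, WT_2 or WT_3 (0.0601, 0.0639 and 0.0552). Of the 3 related genes under other names, UCP2 and MTCH1 fell (-0.63 and -0.72) and MTCH2 did not pass (-0.24). MTCH2 was lower in all FT libraries and passed as lower without FT_1 (-0.20, edgeR adjusted p = 0.0291). All 3 genes were then lower, as were 31.5% of all genes. UCP2 lost its call without WT_2 or WT_3 (edgeR adjusted p = 0.0575 and 0.0567).

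**Figure D5:**
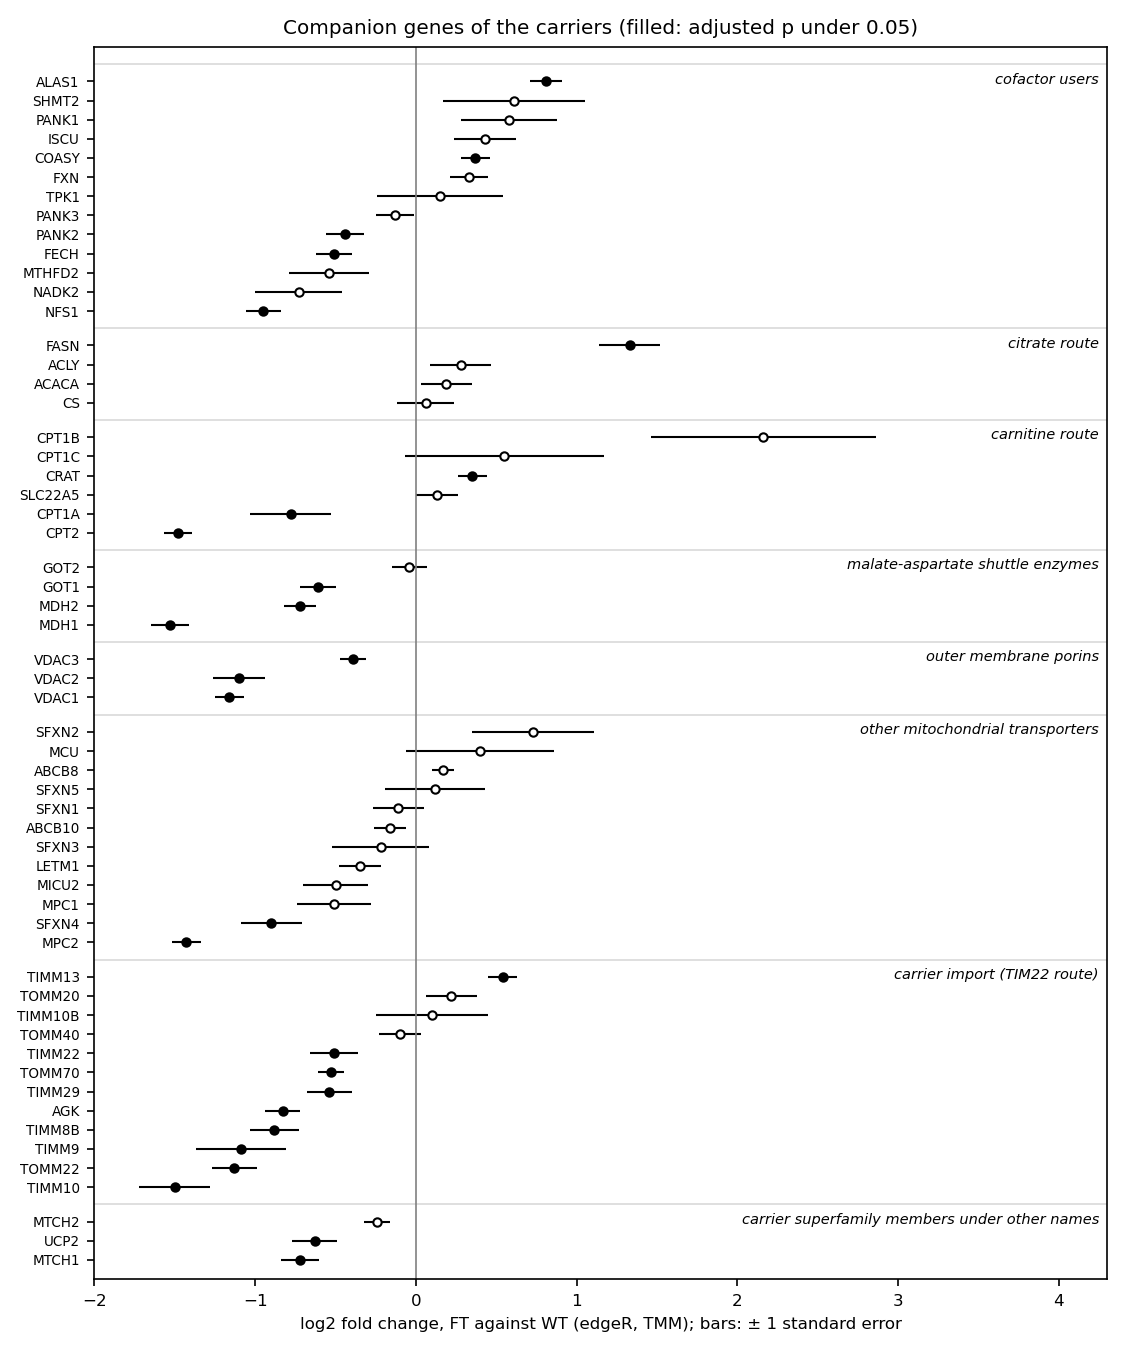
Log2 fold change of FT against WT (edgeR, all 6 libraries) with bars of 1 standard error for tested genes of the 8 companion lists, filled where the adjusted p was under 0.05. All 3 porins lie to the left of 0, and FASN, at 1.33, is the highest filled point.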

How the data were processed

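RNA-seq was analysed for 3 FT and 3 WT libraries, grouped by the genotype in the labels. The authors' table held, per the file headers, raw counts per gene and FPKM values for each library, as deposited. The submitters' processing notes name HISAT2 2.0, StringTie 1.3.0 and Bowtie 0.12.2. The only genome build in those notes is a mouse build (mm8), so the build of the cattle coordinates is not given in the sources used here. Counts were tested with edgeR 4.0.16 in R 4.3.3 (TMM scaling, filterByExpr, quasi-likelihood test, Benjamini-Hochberg adjustment over 13482 genes), with alternatives in DESeq2 1.42.0 and limma 3.58.1, other scalings, filters and pseudocounts, gene length offsets, a replicate block and each library left out. The steps were tested on simulated counts with the same spread in every library and few changed genes. No simulated library stood apart as FT_1 does, so that test does not cover its effect. Members and lists were chosen with earlier results of these data known, so no set test was run. Values of every library are given for passing carriers whose absolute log2 fold change exceeded 1, the 5 most abundant, and listed paralogues whose log2 fold changes differed by more than 1. The 2 smallest p per direction were named from each companion list, and any gene of lists with 6 or fewer, with exceptions stated. Outside this rule, chosen after values were seen, stand the values per library of VDAC1, CPT2 and MDH1 and the names of SFXN4 and PANK2. Values of 1 tested carrier and 2 companion genes are counted but not reported or drawn here. The mean chi-square per gene between libraries of a group was at least 11.7, so all were counted separately.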

Additional observations from a re-analysis of the deposited data

How the results depend on the processing

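The 15 carriers that passed kept their direction in all 17 alternatives, and SLC25A3, SLC25A20, SLC25A23, SLC25A24 and SLC25A44 passed in each. Counts depended on the setting more than directions did. Against 8 carriers higher in FT, there were 4 with library totals only, 3 in limma on log2(FPKM + 1) and on log2(FPKM + 0.1), and 2 in limma without a filter. All genes moved too, with 20.1% higher at first and 15.2%, 15.0%, 15.4% and 9.88% in these settings. With a library left out there were 2 to 11 higher and 3 to 9 lower (11.0% to 30.6% and 11.1% to 31.5% of all genes). Past the study's threshold, 1 carrier was higher in each of the 3 limma fits (2.58% to 6.12% of all genes), and 1 to 2 were higher and 2 to 4 lower with a library left out (8.31% to 11.0% and 7.40% to 12.2%). Of the companion genes, 3 were higher with library totals only and in each of the 3 limma fits, and 3 to 9 with a library left out. There were 26, 26 to 29 and 16 to 33 lower in these settings, with 25.2%, 20.5% to 29.2% and 11.1% to 31.5% of all genes lower.

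The median log2 fold change of the carriers, 0.05, was -0.09 with library totals only, 0.02 with upper-quartile factors, -0.13, -0.14 and -0.07 in limma on log2(FPKM + 1), on log2(FPKM + 0.1) and without a filter, 0.10 with gene length offsets, and 0.00 to 0.07 with a library left out. With library totals only the median of all genes was -0.12 and in limma on log2(FPKM + 1) also -0.12, so the carriers moved with it. The causes of the remaining differences were not tested.

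Signs turned only for genes that did not pass, also for SLC25A11, SLC25A16, SLC25A25, SLC25A27, SLC25A33, SLC25A38, SLC25A40 and SLC25A41 (lowest to highest over the alternatives -0.03 to 0.22, -0.26 to 0.04, -0.48 to 0.04, -0.25 to 0.17, -0.12 to 0.31, -0.15 to 0.04, -0.12 to 0.08 and -0.10 to 0.38). SLC25A17 had -0.00 at its lowest. SLC25A29 was at -0.02, -0.03 and -0.02 in limma on log2(FPKM + 1), on log2(FPKM + 0.1) and without a filter. SLC25A36 was at -0.08 with library totals only, -0.13 in each of the 3 limma fits and -0.22 without FT_1, the lowest of -0.22 to 0.19 with a library left out. SLC25A35 was at -0.05 with library totals only, -0.13, -0.30 and -0.13 in the limma fits, and -0.26 to 0.55 with a library left out, with -0.26 without FT_2 and -0.09 without FT_3. Values were compared for the 20 carriers that passed with all libraries or without FT_1. Of these values, 249 kept sign and side of the threshold, 69 no longer passed, 6 newly passed with the sign kept and 16 turned sign. SLC25A36 without FT_1, which both turned sign and newly passed, is counted among the 16. The cause was not tested.

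FT and WT samples share replicate numbers but come from different fetuses. Deviations of same-numbered samples from their group means correlated at 0, -0.02 and 0.02, so no pairing by number was seen. Deviations within FT mostly reflect how far FT_1 stood from FT_2 and FT_3, so a weak pairing could be missed. With the replicate block, 5 carriers were higher and 6 lower (13.6% and 12.9% of all genes), the median was 0.02, 3 companion genes were higher and 19 lower, and SLC25A35 was at -0.16. Carriers that lost their call with the block included SLC25A4, SLC25A6 and SLC25A46 (edgeR adjusted p = 0.0777, 0.0552 and 0.0753). With the block and gene length offsets, 7 carriers were higher and 4 lower (12.4% and 12.6% of all genes), 3 companion genes were higher and 17 lower, and SLC25A35 was at -0.12. SLC25A1 then passed (edgeR adjusted p = 0.0480) and PDGFRA did not (0.0525). Carriers that lost their call in this setting included SLC25A4 (0.260), SLC25A15 (0.0608), SLC25A26 (0.0526) and SLC25A46 (0.0627). The cause was not tested.

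With 3 libraries a group and FT_1 unlike the others, carriers such as SLC25A6, SLC25A22 and SLC25A35 had a larger SD of FPKM in FT than in WT. SLC25A3, SLC25A20 and SLC25A23 did not. SLC25A20 had 8.36 ± 0.555 in FT and 20.4 ± 0.739 in WT, so relative to its mean it spread more in FT. SLC25A34, SLC25A41 and SLC25A42 had a mean FPKM under 1, and 4 carriers had too few counts to be tested. What spread and depth each limit was not compared.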
